A study of Mus musculus with 15 samples.

Results

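MHC class II molecules present peptides from endocytosed protein to CD4 T cells, and the 7 genes described here encode their chains, the invariant chain, the peptide editor H2-DM and the transactivator that switches the others on. The genes were selected on earlier results of these arrays, mainly on their lower signal in iron day 1 arrays than in sham arrays, so that comparison is given as a description only. They were H2-Aa, H2-Ab1, H2-Eb1, Cd74, Ciita, H2-DMa and H2-DMb1. Of the 7, 6 could be measured among the 19937 named genes of the array. H2-DMb1 had 0 probe sets of its own and 1 that it shares with another gene, so no value is given for it.

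RNA came from left ventricular cardiomyocytes of male C57Bl/6NT mice aged 8 to 9 months, isolated with collagenase and a calcium gradient. The irradiated mice received 0.15 Gy of iron ions at 1 GeV per nucleon to the whole body. There were 3 arrays from day 1 after iron, 3 from day 3, 2 from day 7, 2 from day 14 and 2 from day 28, against 2 sham arrays from day 1 and 1 from day 3. The labels do not say that each array is a separate mouse, so p values measure the spread between arrays, which may be technical. No sham array later than day 3 was used, and for days 7, 14 and 28 the time elapsed and the exposure cannot be told apart. Per the labels, more than 90% of the cells were cardiomyocytes, and a few inflammatory or endothelial cells could remain.

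In the mouse, class II genes are expressed mainly by B cells, dendritic cells and a share of macrophages, and healthy cardiomyocytes express little of them. H2-Aa and H2-Ab1 encode the alpha and beta chains of I-A. H2-Eb1 encodes the beta chain of I-E, whose alpha chain C57BL/6 mice do not make. Cd74, the invariant chain, fills the groove of new dimers and guides them to endosomes, where H2-DM (from H2-DMa and H2-DMb genes) exchanges its remnant for peptide. CIITA, the product of Ciita, does not bind DNA itself and is recruited by factors bound to the W/S, X and Y boxes of class II promoters. In bulk RNA, fewer cells of a type and less RNA per cell cannot be told apart.

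The promoters are shown because class II promoters are known to hold these boxes, and nothing is read from them about the courses of signal. The RefSeq promoter table (GRCm38.p6) held 4 of the 7 genes, H2-Aa, H2-Eb1, H2-DMa and H2-DMb1. Each sequence below runs 5′ to 3′ on the gene's strand over 130 bases, from 150 to 21 bases before the annotated start, and the capitals mark the X and Y letters searched. X was spelled as GNAAC, then 2 or 3 bases, then TGANG, and Y as TGATTGG. The letters were chosen after these sequences had been read, so their presence in the members is a description.
H2-Aa, chr17:34287844-34287973, minus strand: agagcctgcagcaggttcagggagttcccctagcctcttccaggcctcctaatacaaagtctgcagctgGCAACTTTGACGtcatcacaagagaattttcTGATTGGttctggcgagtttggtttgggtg
H2-Eb1, chr17:34305717-34305846, plus strand: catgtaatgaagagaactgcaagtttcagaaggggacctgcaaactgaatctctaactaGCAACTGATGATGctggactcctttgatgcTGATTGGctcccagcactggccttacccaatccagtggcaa
H2-DMb1, chr17:34153041-34153170, plus strand: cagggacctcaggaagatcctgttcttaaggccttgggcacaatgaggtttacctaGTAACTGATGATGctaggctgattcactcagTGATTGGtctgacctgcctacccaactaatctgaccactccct

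In all 3 genes the X match came first and the Y match followed on the same strand. The X match began 81 bases before the start in H2-Aa, 91 in H2-Eb1 and 94 in H2-DMb1. The matches were separated by 19 bases in H2-Aa, 17 in H2-Eb1 and 18 in H2-DMb1. Among all 32851 promoter windows of the same length, read on both strands, 5.2% held the Y letters, 0.752% held the X letters, and 0.0335%, or 11 windows, held X before Y on the same strand. Of those 11 windows, 5 were on chromosome 17, namely those of the 3 members shown, of BC051142 and of H2-Ob, a subunit of the H2-DM inhibitor H2-O. Neither of the H2-DMa windows held these letters, which says only that they are not in those windows.

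Signals are the authors' log2 values, in which a difference of 1 is a doubling, and levels of different probe sets were not set against each other. Array medians over all probe sets lay between 4.96 and 5.13. Some arrays stood apart in markers of other cells. The mean over 18 T cell and thymocyte markers was 6.86 and 6.99 in the iron day 28 arrays and 5.98 in the sham day 3 array. It was 5.54 in iron day 14 replicate 1, against 4.15 to 4.98 in every other array. The mean over 15 airway and alveolar markers was highest in the sham day 3 array, at 7.48, and lay between 4.96 and 6.80 in the rest. Iron day 7 replicate 1 was highest in the mean over 14 B cell markers, at 6.56, against 4.44 to 5.71 in the rest. It was also highest in that over 22 macrophage and monocyte markers, at 7.85, followed by day 7 replicate 2 at 7.34. Cardiomyocyte markers stood high throughout, with a mean over 16 genes of 11.5 to 11.8. The counts of class II and list genes that passed on day 3 against sham, and on the later days against day 3, are also given without the arrays high in thymocyte markers. That choice was made after the data were seen, and iron day 7 replicate 1 stayed in those fits. The other values are over all 15 arrays unless stated.

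The I-A chain genes had their lowest signal on days 1 and 3 after iron and their highest group mean on day 7. For H2-Ab1 that mean was 8.99, against 8.95 on day 28. H2-Aa read 6.79, 6.41 and 6.51 on iron day 1, 6.62, 6.68 and 6.88 on day 3, 9.77 and 8.83 on day 7, 7.98 and 8.01 on day 14, and 9.10 and 8.80 on day 28, against 8.28, 7.74 and 8.53 in the sham arrays, where the last value of 3 is the day 3 array. H2-Ab1 read 7.01, 6.61 and 6.77 on iron day 1, 6.86, 6.86 and 6.86 on day 3, 9.46 and 8.52 on day 7, 7.77 and 8.00 on day 14, and 9.01 and 8.88 on day 28, against 8.40, 7.73 and 8.61 in sham. For both genes each of the 6 arrays from iron days 1 and 3 lay below each of the other 9 arrays. The replicates of day 3 were close together, with an SD of 0.0033 for H2-Ab1 (n = 3), and those of day 7 far apart, with an SD of 0.66 (n = 2).

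The I-E beta chain gene and the invariant chain followed the same course. H2-Eb1 read 6.96, 6.65 and 6.75 on iron day 1, 6.69, 6.65 and 6.67 on day 3, 9.54 and 8.68 on day 7, 7.82 and 7.85 on day 14, and 8.92 and 8.62 on day 28, against 8.28, 7.65 and 8.44 in sham. Cd74 read 7.46, 7.09 and 7.23 on iron day 1, 7.44, 7.32 and 7.38 on day 3, 10.19 and 9.18 on day 7, 8.24 and 8.55 on day 14, and 9.52 and 9.26 on day 28, against 8.89, 8.38 and 9.33 in sham. Here too the early iron arrays lay below all others: the highest of the 6 was 6.96 for H2-Eb1 and 7.46 for Cd74, and the lowest of the other 9 was 7.65 and 8.24.

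H2-DMa, the alpha chain of the peptide editor, moved the same way over a narrower range. It read 5.99, 5.75 and 5.85 on iron day 1, 5.74, 5.76 and 5.82 on day 3, 7.36 and 6.61 on day 7, 5.90 and 6.02 on day 14, and 6.67 and 6.38 on day 28, against 6.51, 6.11 and 6.43 in sham. Its day 14 arrays overlapped those of day 1. Ciita, whose product is required for expression of the others, showed no such course. It read 5.98, 5.50 and 5.88 on iron day 1, 6.16, 6.13 and 5.62 on day 3, 6.05 and 6.05 on day 7, 5.48 and 5.85 on day 14, and 6.00 and 6.15 on day 28, against 5.78, 5.95 and 5.86 in sham. Its arrays from days 1 and 3 spanned the sham values, those of days 7 and 28 lay just above them, and its whole range over 15 arrays was 0.68, against 3.36 for H2-Aa. Ciita was near the filter of 5.5125 on mean signal, and 2 of its values lay below it.

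**Figure D1:**
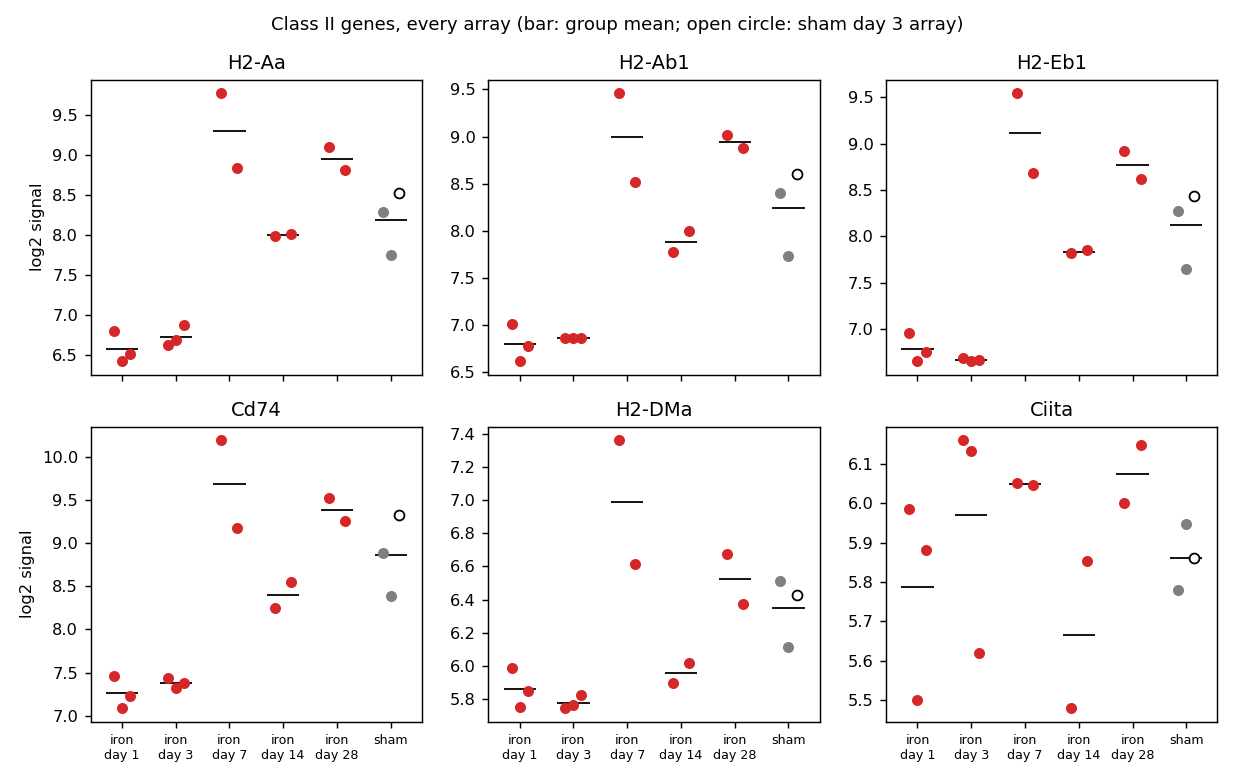
Signal (log2) of the 6 measured class II genes in each of the 15 arrays, 1 panel a gene, with a point for each array, a bar for each group mean, the iron days in order and sham on the right. H2-Aa, H2-Ab1, H2-Eb1 and Cd74 lie lowest on iron days 1 and 3. Their highest group mean is on day 7, whose arrays overlap those of day 28. H2-DMa varies less, and Ciita stays between 5.48 and 6.16.

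By group means, H2-Aa, H2-Ab1 and Cd74 ran in the order day 1, day 3, day 14, sham, day 28 and day 7 from low to high, and H2-Eb1 and H2-DMa in the same order with days 1 and 3 exchanged. For H2-Aa the means were 6.57 ± 0.20 on day 1, 6.72 ± 0.13 on day 3, 9.30 ± 0.67 on day 7, 8.00 ± 0.02 on day 14 and 8.95 ± 0.21 on day 28, against 8.18 ± 0.40 in sham (SD; n = 3 on days 1 and 3 and in sham, n = 2 on the other days). Days 1 and 3 differed by less than the SD of day 1 for each of these 5 genes. For H2-Aa, day 14 lay within the range of the sham arrays, so those neighbours were not separated beyond their spread. Nor were days 7 and 28, whose arrays overlapped for each of these 5 genes. For H2-Ab1 and Cd74, day 7 replicate 2, at 8.52 and 9.18, lay below both day 28 arrays.

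On iron day 1, 4 of the 6 genes passed the limma threshold (adjusted p under 0.05 over the 9969 genes tested) with lower signal than sham, where 0.0602% of all tested genes passed in either direction. Nothing is read from that count, since this comparison brought the genes up. The log2 difference, iron day 1 minus sham, was -1.61 for H2-Aa, -1.61 for Cd74, -1.45 for H2-Ab1, -1.33 for H2-Eb1, -0.49 for H2-DMa and -0.07 for Ciita. The arrays did not overlap for 5 of the 6, against 5.80% of all genes. Just inside the threshold were H2-Aa, H2-Ab1, H2-Eb1 and Cd74, all at an adjusted p of 0.0447 (limma), and H2-DMa missed it at 0.304. Leaving out 1 array took the count to 0 for 11 of the 15 arrays: iron day 1 replicates 2 and 3, all 3 of iron day 3, both of day 14, both of day 28, sham day 1 replicate 1 and sham day 3.

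On iron day 3, 5 of the 6 genes fell relative to sham, where 5.25% of all tested genes did. This comparison uses the same 3 sham arrays as that of day 1 and is not independent of it. The log2 differences were -1.46 ± 0.22 for H2-Aa (adjusted p = 0.0066), -1.39 ± 0.23 for H2-Ab1 (0.0068), -1.45 ± 0.21 for H2-Eb1 (0.0062) and -1.49 ± 0.24 for Cd74 (0.0068; all values ± SE, limma). H2-DMa was -0.57 ± 0.16 (0.0486), and that call held in only 4 of the 15 fits that left out 1 array, with adjusted p between 0.012 and 0.15. Ciita differed by 0.11 ± 0.16 (0.685). The day 3 arrays lay below all sham arrays for 5 of the 6 genes, against 15.8% of all genes. With the 2 sham day 1 arrays alone as sham, the differences were -1.29 for H2-Aa, -1.21 for H2-Ab1, -1.29 for H2-Eb1 and -1.26 for Cd74, and these 4 of 6 still passed, where 1.98% of all genes fell.

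The chain genes and Cd74 were higher on the later iron days than on iron day 3. Iron days 7, 14 and 28, averaged as 3 day means, were set against iron day 3, which uses neither the sham nor the iron day 1 arrays. Of the 6 genes, 5 rose, where 8.38% of all tested genes did, and Ciita did not pass. H2-Aa averaged 8.75 over the later days and 6.72 on day 3, a log2 difference of 2.02 ± 0.19 or 4.07-fold (adjusted p = 0.00011). H2-Eb1 averaged 8.57 and 6.67, a difference of 1.90 ± 0.18 or 3.73-fold (0.00011). Cd74 averaged 9.16 and 7.38, which is 1.78 ± 0.21 or 3.43-fold (0.00066), and H2-Ab1 8.61 and 6.86, which is 1.75 ± 0.20 or 3.36-fold (0.00052).

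H2-DMa changed less in the same comparison, at 0.71 ± 0.14 or 1.64-fold (adjusted p = 0.0071, limma). For Ciita the difference was -0.04 with a 95% interval of -0.34 to 0.25. Every later array lay above every day 3 array for 5 of the 6 genes, against 7.61% of all genes. The median difference over the 6 genes was 1.76, beside -0.04 over all genes tested. All 5 calls held in each of the 15 fits that left out 1 array. In a fit chosen after the data were seen, without both iron day 28 arrays, iron day 14 replicate 1 and sham day 3, where thymocyte markers were high, days 7 and 14 minus day 3 gave 1.93 for H2-Aa, 1.81 for H2-Eb1, 1.74 for Cd74 and 1.63 for H2-Ab1, all past the threshold, and 0.73 for H2-DMa with an adjusted p of 0.063. These 4 of 6 genes stand beside 0.963% of all genes that rose in that fit. An F test among iron days 3, 7, 14 and 28 passed for the same 5 genes (adjusted p 0.00041 to 0.0057), where 17.1% of all genes passed, and gave 0.298 for Ciita. Without those 4 arrays, among days 3, 7 and 14, the same 5 genes passed, where 598 of all 9969 tested genes passed. Their adjusted p ran from 0.0057 for H2-Aa to 0.022 for H2-DMa (F test, limma).

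The later days were also set against sham, again the same 3 arrays. On iron day 7, H2-Aa rose by 1.12 ± 0.25 (adjusted p = 0.0276, limma) and H2-Eb1 by 0.99 ± 0.24 (0.0329), 2 of the 6 genes, where 1.94% of all tested genes rose. Cd74 was at 0.82, H2-Ab1 at 0.75 and H2-DMa at 0.64, none of them past the threshold. The day 7 arrays lay above all sham arrays for 4 of the 6 genes, against 15.3% of all genes. The day 7 count rests on single arrays. It was 0 without iron day 7 replicate 1, without sham day 1 replicate 1 or without sham day 1 replicate 2, 3 without the sham day 3 array, and 5 without iron day 7 replicate 2.

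On iron day 14, 0 of the 6 genes passed and 0 had an unadjusted p under 0.05 (limma), where 0.833% of all genes passed and 15.4% had such a p. The differences from sham ran from -0.47 for Cd74 to -0.19 for H2-Aa. On iron day 28, 0 of the 6 passed and 3 had an unadjusted p under 0.05, where 1.41% of all genes rose past the threshold and 19.3% had such a p. The differences were 0.77 ± 0.25 for H2-Aa (adjusted p = 0.13), 0.70 for H2-Ab1, 0.65 for H2-Eb1, 0.52 for Cd74, 0.21 for Ciita and 0.17 for H2-DMa. The day 28 arrays lay above all sham arrays for 4 of the 6 genes, against 25.7% of all genes. Iron day 28 minus days 7 and 14 gave 0 of the 6 genes past the threshold and 0 at an unadjusted p under 0.05, where 4.08% of all genes passed and 26.0% had such a p, with differences between 0.05 for H2-DMa and 0.51 for H2-Ab1.

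**Figure D2:**
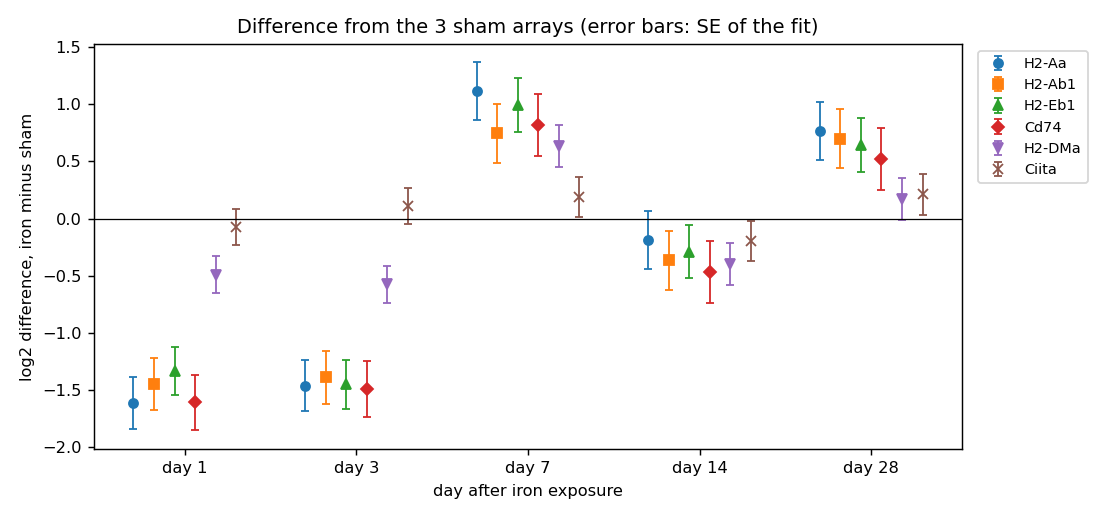
Log2 difference of each iron day minus the 3 sham arrays (vertical axis) by day after exposure (horizontal axis), with a marker for each of the 6 class II genes and error bars of 1 SE of the fit. H2-Aa, H2-Ab1, H2-Eb1 and Cd74 lie between -1.61 and -1.33 on days 1 and 3, between 0.75 and 1.12 on day 7, between -0.47 and -0.19 on day 14 and between 0.52 and 0.77 on day 28.

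The 4 most variable of the genes moved together. Over the 15 arrays, which share 6 groups, Pearson's r between any 2 of H2-Aa, H2-Ab1, H2-Eb1 and Cd74 was 0.991 to 0.995, and 0.947 to 0.979 after the group means were removed. H2-DMa correlated with them at 0.912 to 0.931, and Ciita with the other 5 at 0.249 to 0.329. After the group means were removed, Ciita stood between -0.09 and 0.12 with the others. The day 7 arrays had the largest within-group SD of H2-Aa, at 0.67 (n = 2). Over the 9 arrays of iron days 3, 7, 14 and 28, the SD of H2-Aa ranked at the 99.7 percentile of all tested genes, that of H2-DMa at 95.7 and that of Ciita at 75.3. This leaves out the iron day 1 and sham arrays that mainly brought the genes up. The genes were chosen with earlier results of these data known, so the ranks are a description.

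The remaining class II genes gave less. Of 4 other class II genes on the array, H2-Oa and H2-Ob, the chains of H2-O, which holds back H2-DM mainly in B cells, were tested, and H2-Ea and H2-Eb2 were too dim. H2-Ob read 5.32, 5.25 and 4.96 on iron day 3 and 7.07 and 5.54 on day 7, against 5.46, 5.56 and 5.92 in sham, and did not pass in any comparison. H2-Oa stayed between 5.25 and 6.17. H2-Ea, the I-E alpha gene, which is not functional in this strain, stayed between 3.83 and 4.44 in all 15 arrays. H2-Eb2 was highest, at 5.32, in iron day 7 replicate 1, which was also the highest array for H2-Aa.

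Of the 12 tested enzymes and helpers of class II loading, 3 fell on iron day 3 against sham, where 5.25% of all genes fell, and 3 rose on later iron days against day 3, where 8.38% of all genes rose. Both comparisons use the same 3 iron day 3 arrays with opposite sign, here and for every list that follows, so a fall in one and a rise in the other are not independent. The genes were Ctss (cathepsin S, which trims the invariant chain), Ifi30 (a thiol reductase of endosomes) and Ctsz (cathepsin Z). Ctss read 5.05, 4.85 and 5.34 on iron day 3, 8.03 and 7.04 on day 7, 6.13 and 5.81 on day 14 and 6.45 and 6.45 on day 28, against 6.63, 6.38 and 6.84 in sham. It changed by -1.54 ± 0.25 on day 3 against sham (adjusted p = 0.0068) and by 1.57 ± 0.22 on the later days against day 3 (0.0020). Ifi30 changed by -1.19 and 1.25, and Ctsz by -0.91 and 0.81. With the sham day 1 arrays alone as sham, 2 of the 12 fell, Ctss and Ctsz, and Ifi30 had an adjusted p of 0.094 (limma). Without the 4 arrays high in thymocyte markers, 1 of the 12 rose on days 7 and 14 against day 3, namely Ctss at 1.59 (adjusted p = 0.035), with Ifi30 at 0.061 and Ctsz at 0.082. The other 9, among them Ctsl, Ctsb, Ctsd and Lgmn, did not pass, with differences of at most 0.15 in size for the later days against day 3.

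Of 16 tested regulators of class II transcription and turnover, 4 rose and 2 fell on the later iron days against day 3, where 8.38% of all genes rose and 6.95% fell. Irf1, an interferon-induced factor that acts on a Ciita promoter, rose by 0.77 ± 0.14 (adjusted p = 0.0047, limma), and Spi1 (PU.1, a myeloid and B cell factor), Ifngr1 (a chain of the interferon gamma receptor) and Irf2 rose by 0.79, 0.60 and 0.39. Nfyc, a subunit of the factor that binds the Y box, changed by -0.34, and Ifngr2 by -0.24. Without the 4 arrays high in thymocyte markers, 0 of the 16 passed, where 0.963% of all genes rose. The median difference was 0.07, beside -0.04 over all genes tested, with Irf1 at 0.72 (adjusted p = 0.061, limma) and Spi1 at 0.92 (0.062). Irf1 read 5.45, 5.57 and 5.98 on iron day 3, 7.12 and 6.76 on day 7, 5.46 and 5.82 on day 14 and 6.75 and 6.72 on day 28, against 6.14, 6.02 and 6.19 in sham. Its day 14 arrays thus lay among those of day 3, where those of H2-Aa lay above. On day 7 against sham, Irf1 rose by 0.83, Cd83, which slows the turnover of class II at the cell surface, by 0.92, and Socs1, an inhibitor of cytokine signalling, by 0.46, while Nfyc changed by -0.39. Without the sham day 3 array, Irf1 still passed on day 7, at 0.86 (adjusted p = 0.032), and Cd83, Socs1 and Nfyc did not, at 0.066, 0.057 and 0.051. On day 3 against sham, Spi1 and Ifngr1 changed by -0.95 and -0.65 and Ifngr2 by 0.29. Without the sham day 3 array 0 of the 16 passed (limma), where 1.98% of all genes fell. The median difference was -0.05, beside 0.02 over all genes tested.

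Markers of macrophages and monocytes moved alongside on days 3 and 7, and their median was lower on day 1 too. On iron day 1 against sham, 0 of the 15 tested markers passed, beside 0.0602% of all genes in either direction. Their median difference was -0.83, beside 0.03 over all genes tested. Of 15 tested macrophage and monocyte markers (22 on the array), 11 fell on iron day 3 against sham, beside 5.25% of all genes, and 13 rose on the later days against day 3, beside 8.38%. Without the sham day 3 array 9 of the 15 fell, beside 1.98% of all genes, and without the 4 arrays high in thymocyte markers 7 rose on days 7 and 14 against day 3, beside 0.963%. Tyrobp, an adaptor of myeloid receptors, changed by -1.66 and 1.57, and Adgre1, a macrophage surface receptor, by -1.46 and 1.30. The mean over the 22 markers was 5.89 to 6.77 on iron day 1, 5.79 to 6.02 on day 3, 7.34 to 7.85 on day 7, 6.38 to 6.73 on day 14 and 6.42 to 6.52 on day 28, against 6.77 to 7.05 in sham. Between 11 and 13 of the 22 stood above the array's median on day 3, and 20 on day 7, against 16 to 20 in sham. On day 28 this mean lay below all sham arrays while that of the class II genes, 8.01 and 8.20, lay above all 3, at 7.26 to 7.86. Iron day 1 replicate 1 had a macrophage mean of 6.77, as high as the lowest sham array, with a class II mean of 6.70, below all 3 sham arrays. Stromal markers fell on day 3 against sham too, with 13 of 14 tested fibroblast and 10 of 15 tested endothelial markers, beside 5.25% of all genes. Of 16 cardiomyocyte markers 0 passed (limma), with a median difference of 0.03, beside 0.04 over all genes tested. Without the sham day 3 array 12 fibroblast, 7 endothelial and 0 cardiomyocyte markers fell, beside 1.98% of all genes. On iron day 1 against sham 0 markers of these 3 lists passed, with median differences of -0.87, -0.51 and 0.01 in the same order.

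On the later days against day 3, 11 of the 14 fibroblast and 5 of the 15 endothelial markers rose, beside 8.38% of all genes, and 2 of the 16 cardiomyocyte markers fell, beside 6.95%. The cardiomyocyte genes were Tnnt2 (cardiac troponin T) at -0.12 (adjusted p = 0.041, limma) and Actn2 (an actinin of the sarcomere) at -0.13 (0.045). Without the 4 arrays high in thymocyte markers, 0 markers of these 3 lists passed on days 7 and 14 against day 3 (limma). In that fit 0.963% of all genes rose. The median differences were 0.81 for fibroblast, 0.76 for endothelial and -0.09 for cardiomyocyte markers, beside -0.04 over all genes tested.

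B cell markers were mostly dim. Of 14 on the array, 4 passed the filter. On iron day 3 against sham, 0 of these 4 passed the threshold (limma), where 5.25% of all genes fell. Their median difference was -0.41, beside 0.04 over all genes tested. Without the sham day 3 array 0 of the 4 passed, where 1.98% of all genes fell, and the median was -0.14, beside 0.02. Cd79b and Bank1 rose on later days against day 3, by 1.70 and 1.60, 2 of the 4, beside 8.38% of all genes. Without the 4 arrays high in thymocyte markers both missed the threshold, at 1.67 and 1.62 with an adjusted p of 0.061 each (limma). In that fit 0 of the 4 passed, where 0.963% of all genes rose, with a median of 0.90, beside -0.04. The mean over the 14 was 4.44 to 4.63 on iron day 1, 4.61 to 4.84 on day 3, 5.32 and 6.56 on day 7, 4.63 and 5.06 on day 14 and 5.60 and 5.71 on day 28, against 4.71 and 4.84 in the sham day 1 arrays and 5.68 in the sham day 3 array. In the sham day 1 arrays it was thus as low as on iron day 3, while H2-Aa stood at 8.28 and 7.74 there, above 6.62 to 6.88 on iron day 3. Ms4a1 (CD20) read 8.35 in iron day 7 replicate 1 and 7.13 in the sham day 3 array, against 4.23 and 4.36 in the sham day 1 arrays.

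Of 14 genes listed as dendritic cell markers, 4 were tested. On iron day 3 against sham, 0 of these 4 passed the threshold (limma), where 5.25% of all genes fell. Their median difference was -0.14, beside 0.04 over all genes tested. Without the sham day 3 array 0 of the 4 passed, where 1.98% of all genes fell, and the median was -0.03, beside 0.02. Cd209a and Ly6d rose on later days against day 3, by 0.50 and 1.59, 2 of the 4, beside 8.38% of all genes. Without the 4 arrays high in thymocyte markers they were at 0.52 (adjusted p = 0.080, limma) and 0.95 (0.094). In that fit 0 of the 4 passed, where 0.963% of all genes rose, with a median of 0.60, beside -0.04. The defining genes Flt3, Zbtb46, Itgax, Xcr1 and Clec9a were below the filter, with no value above 4.82. The mean over the 14 lay between 4.60 and 4.80 on iron days 1 and 3, 4.97 and 5.33 on day 7, 4.75 and 4.88 on day 14 and 5.12 and 5.22 on day 28, against 4.81 to 4.90 in sham. Over the 15 arrays, the mean of the class II genes correlated at 0.90 with that of dendritic cell, 0.88 with B cell, 0.80 with macrophage, 0.68 with fibroblast, 0.61 with T cell and thymocyte and 0.60 with endothelial markers, and at -0.68 with cardiomyocyte markers. Over the 11 arrays without those 4, these values were 0.90, 0.86, 0.92, 0.66, 0.70, 0.51 and -0.63 in the same order. These arrays share their groups and their RNA mixtures, so the values are a description. The part of these other cells in the class II differences was not tested.

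**Figure D3:**
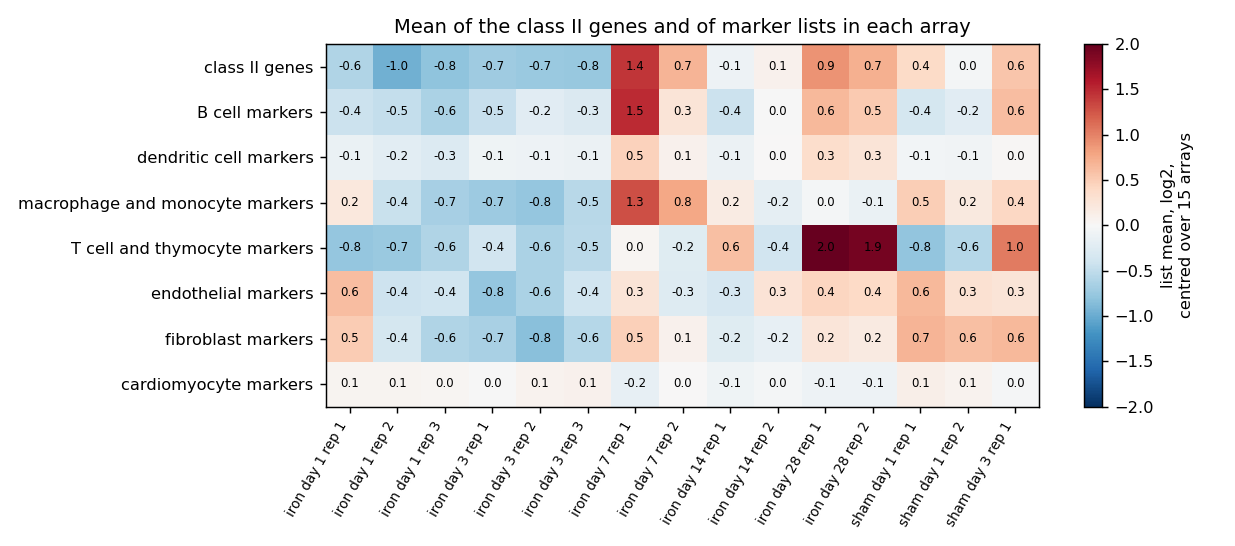
Mean log2 signal of the class II genes and of 7 marker lists (rows) in each of the 15 arrays (columns, iron days in order and sham on the right), each row centred over the arrays, with blue for lower and red for higher. Every row except that of the cardiomyocyte markers lies below its mean in all 3 iron day 3 arrays, the dendritic cell row by the least. The T cell and thymocyte row is highest in the iron day 28 arrays and the sham day 3 array.

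**Figure D4:**
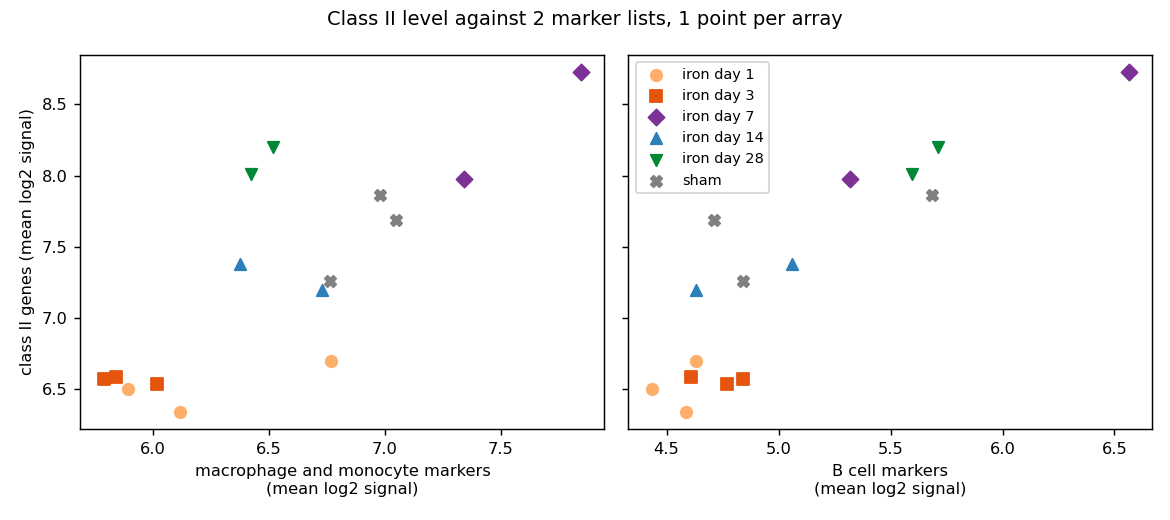
Mean log2 signal of the 6 class II genes (vertical axis) against the mean of the macrophage and monocyte markers (left) and of the B cell markers (right), with a point for each of the 15 arrays marked by group. The sham day 1 arrays lie at B cell means of 4.71 and 4.84 with class II means of 7.69 and 7.26, and the iron day 28 arrays at macrophage means of 6.52 and 6.42 with class II means of 8.20 and 8.01.

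Among all other tested genes, those most like the mean of the 6 class II genes over the 15 arrays were Rassf2 (r = 0.97), Trf (transferrin, 0.97), Bace2 (0.96), Dock2 (a regulator of leukocyte migration, 0.96), Hpcal1 (0.96) and Pkhd1l1 (0.96). After the group means were removed, the most alike were Ptpn1 (0.94), Zswim6 (0.94), Plekhg3 (0.94), Rfx7 (0.93), Hdac1 (0.93) and Dennd5b (0.93). The lists did not share a gene.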

How the data were processed

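Log2 signals for 34760 probe sets on 15 Affymetrix arrays were deposited by the authors already normalized, and ran between 0.234 and 13.01 with 0 missing. MAS5 is named, per the submitters' processing notes; which step it served, and in which version, is not stated there. The annotation gave 1 symbol to 21640 probe sets, several to 1321 and none to 11799, and 21553 were found in the RefSeq gene table. Each of 19937 named genes was represented by its brightest probe set, and the 9969 genes with a mean of at least 5.5125 (the 50th percentile) were tested.

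Genes were fitted with limma 3.58.1 in R 4.3.3, with 6 group means (sham days 1 and 3 pooled), 9 residual degrees of freedom and moderated variances with an intensity trend. Benjamini-Hochberg adjustment covered every tested gene, the threshold was 0.05, and errors are SE unless stated. The fit was tested on simulated data. Promoter windows and figures were made with Python 3.11.15, pandas 2.3.3, numpy 2.4.6 and matplotlib 3.10.9.

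The members and lists were chosen with earlier results of these data known, and the promoter letters after the sequences were read. Other genes named were up to 3 per list, comparison and direction with the smallest p, and the 6 most alike by each measure. Further list genes (H2-Oa, H2-Ob, H2-Ea, H2-Eb2, Ms4a1, Irf2, the dendritic cell genes and the uncalled enzymes) were named after their values were seen. The number of arrays, 1 to 3 per group, limits the precision. Alternatives were quantile normalization, centring on the median, no filter and a stricter one with 6646 genes, variances without the trend, weighted arrays, the mean of a gene's probe sets, only the arrays compared, 1 sham day alone, a replicate block and each array left out. The proton-exposed samples were not analysed here.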

Additional observations from a re-analysis of the deposited data

Results flagged for a closer look

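The class II genes differed between iron days that were compared without any sham or iron day 1 array. The later iron days (7, 14 and 28) exceeded iron day 3 by 2.02 for H2-Aa, 1.75 for H2-Ab1, 1.90 for H2-Eb1, 1.78 for Cd74 and 0.71 for H2-DMa on the log2 scale, each by a limma test of the difference itself. These are 5 of the 6 measured genes, where 8.38% of all tested genes rose, and the exception is Ciita, at -0.04. No group held enough arrays for a single array to be tested as standing apart. Time and exposure cannot be told apart for the later days.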

How the results depend on the processing

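The number of class II genes called for iron day 3 against sham was 4 or 5 of 6 under every alternative run, for the later days against day 3 it was 4 or 5, for the F test 4 or 5, and for day 14 against sham and for day 28 against days 7 and 14 it was 0 throughout. For iron day 1 against sham, 4 became 0 with no filter, with the replicate block, with only the arrays compared and with the sham day 1 arrays alone, and 1 without the intensity trend; leaving out 1 array gave 0 to 4. For iron day 7, 2 became 3 with the replicate block and with the sham day 1 arrays alone, 1 with array weights, and 0 with only the arrays compared or the sham day 3 array alone; leaving out 1 array gave 0 to 5. For iron day 28, 0 became 4 with array weights and 2 with the replicate block; leaving out 1 array gave 0. The cause was not tested.

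The sign turned only in values that passed no test. Ciita on day 1 against sham lay between -0.17 and 0.070 when 1 array was left out, and Ciita on the later days against day 3 between -0.22 and 0.054. H2-DMa iron day 28 minus iron days 7 and 14 was -0.047 after quantile normalization and -0.014 after centring, and lay between -0.14 and 0.24 when 1 array was left out. Counts over all genes varied more, from 126 to 1691 for day 3 (801 in the fit reported), 45 to 1270 for day 7 (459), 37 to 2448 for day 28 (199) and 161 to 2190 for the later days against day 3 (1528). Centring on the median changed the share of higher calls to 15.0% from 42.0% for day 7 and to 38.0% from 70.9% for day 28. Whether the replicate numbers pair the arrays was not settled. Deviations correlated at -0.39 to 0.57 over 31 pairs with the same number (median 0.06). Over 50 pairs with other numbers they correlated at -0.57 to 0.49 (median -0.03). On days 7, 14 and 28 the deviations within a group are equal in size and opposite in sign, so this check cannot exclude pairing. The sham day 3 array, which has no replicate number, was left out of the replicate block. Fits that leave an arm with 1 array take its spread from the other groups.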
